A study of Homo sapiens with 9 samples.

Results

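The nuclear encoded subunits of the mitochondrial respiratory chain and the ATP synthase were taken by gene symbol: NDUF subunits of complex I, SDHA to SDHD of complex II, UQCR genes and CYC1 of complex III, COX subunits of complex IV and ATP5 genes of complex V. The rule found 89 of the 21619 genes in the tables, of which 39 fell to complex I, 4 to complex II, 11 to complex III, 17 to complex IV and 18 to complex V. RNA was sequenced from polysomes of MDA-MB-231 cells, a human triple-negative breast cancer line that here carried EGFP-L10a, a ribosomal protein fused to a green fluorescent tag. The cells were injected into the mammary fat pad of mice, in one arm mixed in equal numbers with mesenchymal stem cells of human bone marrow (MSC, 5 tumours, numbered 1, 6, 7, 10 and 15) and in the other arm alone (4 tumours, numbered 9, 11, 12 and 13), and tumours were collected after 3 weeks. Tagged ribosomes were pulled down from lysates of whole tumours (translating ribosome affinity purification), so the libraries report RNA bound to ribosomes of the cancer cells, plus whatever untagged material came down with it. Every tumour of both arms carried the tagged line and came from a different mouse.

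Complexes I and II pass electrons from NADH and succinate to ubiquinone, complex III passes them to cytochrome c, and complex IV passes them to oxygen. Complexes I, III and IV pump protons across the inner mitochondrial membrane, and the ATP synthase uses the gradient to make ATP. Catalysis sits in a few conserved subunits, some of them encoded in mitochondrial DNA and not analysed here. Many small accessory (supernumerary) subunits stabilise and assemble the complexes. Breast cancer cells use both glycolysis and oxidative phosphorylation for ATP. The transcription factors NRF1, GABPA (an ETS factor) and YY1 are known to bind promoters of many of these nuclear genes.

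Promoter stretches of 4 subunits that fell with MSC, from complexes I, III and V, are shown to set genes that moved together beside the elements known for this gene class. RefSeq promoters (GRCh38.p14) were found for 69 of the 89 genes and for 6 of the 8 subunits that fell. The 250 bases before the transcription start were searched on both strands for the NRF1 core GCATGCGC, the ETS core CCGGAAG and the YY1 element AAGATGGCG, with overlapping copies counted once per gene, and no matches of different motifs overlapped in the stretches shown. Capitals mark the matches. The stretches of ATP5J (chr21:25735055-25735304, minus strand), ATP5I (chr4:674277-674526, minus strand), UQCRH (chr1:46303448-46303697, plus strand) and NDUFC1 (chr4:139302552-139302801, minus strand) read, 5′ to 3′ along each gene's own strand:
ATP5J: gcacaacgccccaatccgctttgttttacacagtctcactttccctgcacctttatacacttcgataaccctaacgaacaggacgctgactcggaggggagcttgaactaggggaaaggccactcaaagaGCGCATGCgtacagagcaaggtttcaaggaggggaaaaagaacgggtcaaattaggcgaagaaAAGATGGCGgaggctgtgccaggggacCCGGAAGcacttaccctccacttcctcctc
ATP5I: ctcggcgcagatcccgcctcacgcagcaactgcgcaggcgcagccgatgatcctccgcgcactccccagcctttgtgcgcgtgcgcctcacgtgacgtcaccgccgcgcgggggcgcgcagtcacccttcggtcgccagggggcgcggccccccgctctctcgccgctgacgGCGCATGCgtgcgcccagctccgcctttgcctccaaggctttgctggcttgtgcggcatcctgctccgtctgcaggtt
UQCRH: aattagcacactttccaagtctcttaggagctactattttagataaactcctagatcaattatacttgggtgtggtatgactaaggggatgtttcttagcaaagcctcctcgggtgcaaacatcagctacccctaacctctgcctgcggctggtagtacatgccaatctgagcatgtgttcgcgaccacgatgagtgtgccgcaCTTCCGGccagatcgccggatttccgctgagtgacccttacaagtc
NDUFC1: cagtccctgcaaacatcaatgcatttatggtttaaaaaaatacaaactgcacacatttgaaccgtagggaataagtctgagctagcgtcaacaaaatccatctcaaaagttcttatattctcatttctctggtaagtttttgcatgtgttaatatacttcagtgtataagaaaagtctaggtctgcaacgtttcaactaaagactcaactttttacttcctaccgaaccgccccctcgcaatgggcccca
The ATP5J stretch held the NRF1 core beginning 120 bases before the start, the YY1 element 57 bases before it and the ETS core 30 bases before it. The ATP5I stretch held the NRF1 core 78 bases before the start, the UQCRH stretch held the ETS core 46 bases before it, and the NDUFC1 stretch held none of these letters. The NRF1 core was present in 12 of the 69 subunit promoters (17.4%), against 2.81% of 27305 RefSeq promoters of the same length. The ETS core was present in 16 of the 69 (23.2%), against 8.82% of all promoters, and the YY1 element was present in 1 of the 69, against 0.641% of all promoters. Any of these motifs was present in 3 of the 6 subunits that fell, in 23 of all 69 (33.3%) and in 11.6% of all promoters. These matches describe letters only.

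Gene totals were 29749909 to 50639082 counts per library with MSC and 24616792 to 65275226 without MSC. Levels are CPM, each library's counts scaled to a common total with edgeR's TMM factors, and log2 changes are with MSC minus without MSC. Of genes listed as expressed in the line, VIM, a mesenchymal filament gene, was at 6742 to 12516 CPM over the 9 tumours. CD44, CAV1 and LGALS1 were at 285 CPM or more, and EGFR was at no more than 21.3 CPM. Of genes listed as absent from the line, ESR1, the oestrogen receptor gene, was at no more than 0.208 CPM, as were PGR, CDH1 and FOXA1. GATA3, also listed as absent, was at 3.73 to 9.89 CPM. Whether these genes set the line apart from MSC or fibroblasts was not tested. Tumour 15, with MSC, stood apart in fibroblast genes: DCN, a matrix proteoglycan, was at 18.9 CPM there and at no more than 0.207 CPM in any other tumour, and the summed level of 13 fibroblast and MSC markers was 612 to 844 CPM with MSC and 537 to 676 CPM without MSC. The highest of these sums, 844 CPM, was that of tumour 15. Most of each sum was NT5E, at 532 to 675 CPM with MSC and 461 to 602 CPM without MSC. The fibroblast and MSC sums overlapped between the groups, whereas the immune and endothelial sums did not. Within the fibroblast and MSC list, the groups did not overlap for COL1A2, a collagen gene. It was at 1.21 to 8.45 CPM with MSC and 0.528 to 0.699 CPM without MSC. The groups overlapped for every other gene of that list. The 5 immune markers summed to 134 to 203 CPM with MSC and 90.4 to 133 CPM without MSC, almost all of it CD68, a lysosomal protein gene. The 5 endothelial markers summed to 4.91 to 7.26 CPM with MSC and 8.33 to 10.8 CPM without MSC, most of it PECAM1. The defining markers PTPRC and CDH5 were at no more than 3.58 and 0.143 CPM in any tumour. Whether carried-over stromal RNA had a part in the subunit values below was not tested. In bulk pull-downs, fewer contributing cells and less RNA per cell cannot be told apart.

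Across the whole table, 563 of 13458 genes tested rose and 484 fell with MSC by edgeR's quasi-likelihood test at an adjusted p of 0.05, which is 4.18% and 3.6% of the genes and 7.78% in either direction. Of the 89 subunit genes, 78 had enough counts to be tested. The test called 1 of them higher (1.28%) and 8 lower (10.3%). An unadjusted p under 0.05 by the same test was found for 21 of the 78 and for 3305 of the 13458 genes. Counts at that p given below for the full fit have this background. Fits with tumours left out have their own backgrounds at that p, which are not given here. The median log2 change of the 78 was -0.11, against 0.01 over all genes tested, and 55 of the 78 were negative. The groups did not overlap for 6 subunits that were lower with MSC and for 1 that was higher, whereas 4.87% of all genes tested had non-overlapping groups that were lower and 5.13% had non-overlapping groups that were higher. The share of subunits called lower was therefore above the background share, and the share called higher was below it. The background includes many genes of low level. With only genes at 5 CPM or more in 4 libraries, 11.7% of subunits and 5.81% of all genes were called lower. In the full fit, the subunits called lower were NDUFC1, NDUFB1, NDUFC2 and NDUFS5 of complex I, UQCRH of complex III and ATP5J, ATP5I and ATP5F1 of complex V. The subunit called higher was CYC1 of complex III.

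**Figure D1:**
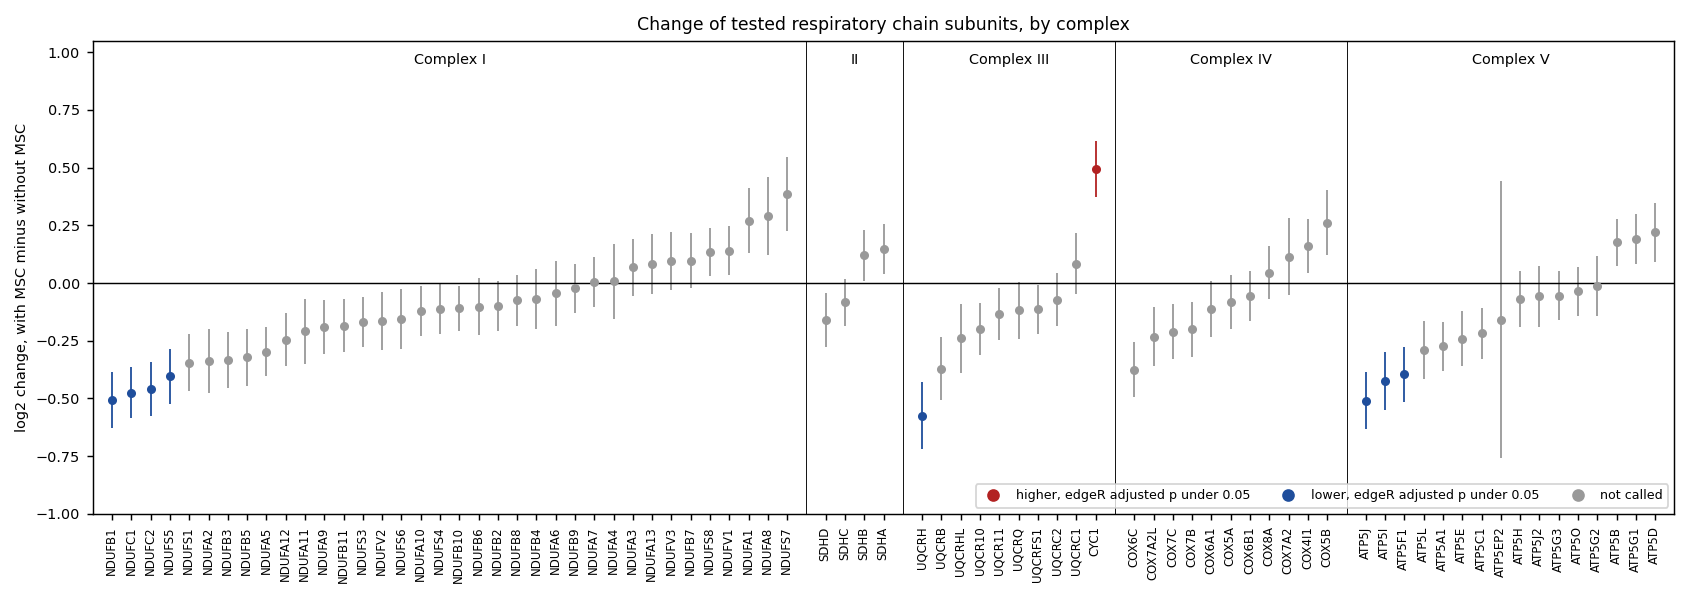
Log2 change (with MSC minus without MSC) of 77 of the 78 tested subunit genes, grouped by complex, with bars for the SE of the change and colour for the edgeR call. The 8 subunits called lower lie between -0.58 and -0.40 in complexes I, III and V, CYC1 lies at 0.49, and no subunit of complexes II and IV was called.

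The counts changed with the tumours included and with the tool. DESeq2 called 10 subunits lower, adding COX6C and UQCRB, at a background of 5.87% of all genes, and limma-voom called 5 at a background of 2.18%. With each library's dependence on transcript GC content and length removed, edgeR called 5 lower and none higher at a background of 2.72% lower. Without tumour 12, which had no MSC, edgeR called 0 of 79 tested subunits (13 at an unadjusted p of 0.05) while 0.69% of all genes were called lower, and without tumour 9, also without MSC, it called 1, NDUFC2, at a background of 1.02%. Leaving out a tumour with MSC gave 3 lower calls without tumour 1 (background 1.44%), 6 without tumour 6 (2.48%), 5 without tumour 7 (2.48%), 2 without tumour 10 (1.44%) and 4 without tumour 15 (2.26%). Among tumours without MSC, 3 were called without tumour 11 (2.19%) and 11 without tumour 13 (6.4%), where 3 were also called higher (background 7.31%). None of the 9 called subunits kept its call in every one of these fits.

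In complex I, 4 of 37 tested genes fell (10.8%, against 3.6% of all genes), none rose, and the median log2 change was -0.11. All 4 are supernumerary subunits of the membrane arm or its surface. NDUFC1, a small accessory subunit, was at 128, 119.7, 131, 108 and 99.7 CPM in tumours 1, 6, 7, 10 and 15 with MSC, against 171, 159, 183 and 139 CPM in tumours 9, 11, 12 and 13 without MSC. The groups did not overlap, tumour 15 being the lowest and tumour 12 the highest. The means were 117 ± 13.3 CPM with MSC and 163 ± 18.7 CPM without MSC (SD, n = 5 and 4), a log2 change of -0.47 ± 0.11 (SE; edgeR adjusted p = 0.0148). Its call was lost without tumour 9 or without tumour 12 (edgeR adjusted p = 0.0519 and 0.0710).

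NDUFB1, another accessory subunit of the membrane arm, was at 139, 137, 141, 108 and 102 CPM with MSC, against 179, 170.2, 211 and 153 CPM without MSC, in the same tumour order. No tumour with MSC reached the lowest tumour without MSC. The log2 change was -0.51 ± 0.12 (edgeR adjusted p = 0.0168), and the call was lost without tumour 9, 10 or 12. NDUFC2, which lies beside NDUFC1 in the complex, was at 94.2, 95.5, 104, 71.6 and 80.6 CPM with MSC, against 109, 121, 145 and 116 CPM without MSC. Its groups were also apart, with tumour 10 the lowest, and its log2 change was -0.46 ± 0.12 (edgeR adjusted p = 0.0245). Its call was lost without tumour 1, 10, 11, 12 or 15, and with the GC and length correction (edgeR adjusted p = 0.0684). Its row shares exons with a readthrough gene, NDUFC2-KCTD14, which had 3 to 32 counts per library and was not tested. NDUFS5, an accessory subunit on the intermembrane space side, was at 424, 387, 413, 327 and 319.9 CPM with MSC, against 455, 498, 586 and 443 CPM without MSC. The gap between the groups was narrow, between tumour 1 and tumour 13, and the log2 change was -0.40 ± 0.12 (edgeR adjusted p = 0.0429). The NDUFS5 call was lost in 8 of the 9 fits that left out 1 tumour.

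**Figure D2:**
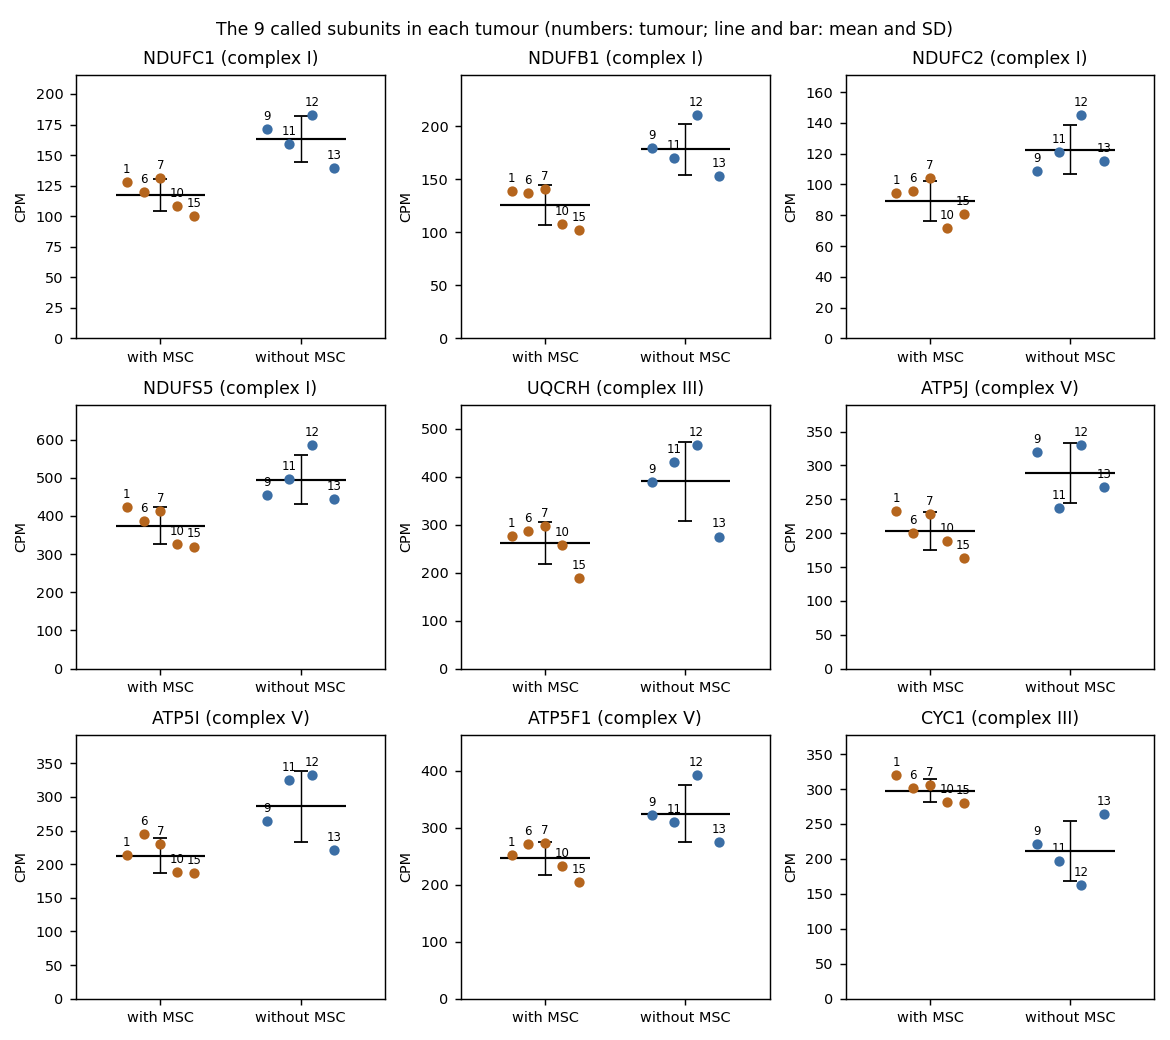
CPM of the 9 called subunits in each of the 5 tumours with MSC and 4 tumours without MSC, with tumour numbers, the group mean (line) and SD (bar). Tumours 10 and 15 are the 2 lowest with MSC for the 8 subunits that fell, tumour 12 is the highest without MSC for each of these 8, and CYC1 shows tumour 12 as its lowest.

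The catalytic core of complex I was not lower as a group before the GC and length correction. The 7 nuclear encoded core subunits, which carry the flavin and the iron-sulphur clusters or form the quinone site, had a median log2 change of 0.14, with 4 positive and 3 negative. None of the 7 was called by edgeR, DESeq2 or limma-voom, and 3 had an unadjusted p under 0.05. The 29 supernumerary subunits had a median of -0.11, with 22 negative and 4 called lower (13.8%, against 3.6% of all genes). Both medians are without the correction. NDUFS7, NDUFS8 and NDUFV1, all positive, had GC contents of 66.5, 63.3 and 60.5%, and the remaining core genes were below 60%. At 60% or above, subunits had a median of 0.14 and other genes 0.19, and after the correction both were at 0.02. The part of GC content in the contrast between core and supernumerary subunits was not tested. NDUFS7, which holds the last iron-sulphur cluster before quinone, had the highest log2 change in the complex, 0.39 ± 0.16 (edgeR adjusted p = 0.142). It was at 72.5, 53.4, 61.3, 47.7 and 45.4 CPM with MSC, against 39.0, 35.4, 36.7 and 60.4 CPM without MSC. Tumour 13 alone made its groups overlap, and with the GC and length correction the change was 0.22. NDUFS1, the largest iron-sulphur subunit, had a log2 change of -0.34 ± 0.12 (edgeR adjusted p = 0.0864), so core subunits pointed in opposite directions.

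Complex II, which is also an enzyme of the citric acid cycle, held no called subunit by edgeR, DESeq2 or limma-voom, and none of its 4 genes had an unadjusted p under 0.05. As edgeR called 7.78% of all genes in either direction, no call among 4 genes does not set this complex apart. SDHA, the flavoprotein, was at 88.9, 78.3, 83.5, 66.4 and 70.8 CPM with MSC, against 65.0, 72.5, 68.3 and 74.4 CPM without MSC, a log2 change of 0.15 ± 0.11 (edgeR adjusted p = 0.418). SDHB, the iron-sulphur subunit, changed by 0.12 ± 0.11. The membrane anchors had negative values, -0.08 ± 0.10 for SDHC and -0.16 ± 0.12 for SDHD. With the GC and length correction SDHB was at 0.24 and SDHD at -0.05. The groups overlapped for all 4 genes. The median of the 4, 0.02, changed sign in 4 of the 9 fits that left out 1 tumour.

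Complex III contained both the only subunit that rose and the largest fall. CYC1, cytochrome c1, the haem subunit that hands electrons to cytochrome c, was at 319.8, 301, 306, 281 and 279.9 CPM with MSC, against 221, 196, 163 and 265 CPM without MSC. The 5 tumours with MSC were close together and all above the tumours without MSC, which were widely spread. The means were 298 ± 17.0 CPM with MSC and 211 ± 42.8 CPM without MSC (SD, n = 5 and 4), a log2 change of 0.49 ± 0.12 (edgeR adjusted p = 0.0197). The adjusted p was 0.0614 with the GC and length correction and 0.102 without tumour 12, and the call was also lost without tumour 1, 9 or 11.

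UQCRH, the hinge protein that binds cytochrome c1, was at 277, 287, 297, 258 and 189 CPM with MSC, against 388, 430.1, 466 and 275 CPM without MSC. Tumour 13 lay inside the range of the tumours with MSC, and the other tumours without MSC lay above it. The log2 change was -0.58 ± 0.14 (edgeR adjusted p = 0.0223), and the call was lost without tumour 1, 9, 10, 11 or 12. UQCRHL, a near-identical copy on another locus, was at 38.3 to 57.3 CPM with MSC and 41.8 to 74.0 CPM without MSC and was not called (-0.24 ± 0.15, and -0.16 with the GC and length correction), and reads of the pair may have been exchanged or lost in counting. All 5 small subunits of the complex (UQCRB, UQCRH, UQCRQ, UQCR10 and UQCR11) had negative log2 changes with a median of -0.20. Of these, 1 was called lower (20%, against 3.6% of all genes). UQCRB, known as a ubiquinone-binding protein, had the highest level per length in the complex at 1189 CPM per kb. It was at 675, 714, 673, 606 and 462 CPM with MSC, against 865, 756, 949.7 and 667 CPM without MSC. Its groups overlapped through tumour 13, and its log2 change was -0.37 ± 0.14 (edgeR adjusted p = 0.0938), or -0.21 with the GC and length correction. The other redox subunit, the Rieske protein UQCRFS1, changed by -0.11 ± 0.10, and the core proteins UQCRC1 and UQCRC2 by 0.08 ± 0.13 and -0.07 ± 0.12. None of these 3 was called, and with the GC and length correction they were at -0.05, -0.02 and 0.01.

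Complex IV held no subunit called by edgeR or limma-voom among the 11 tested, and 1 by DESeq2. With 7.78% of all genes called by edgeR in either direction, no call among 11 genes does not set this complex apart. The median log2 change was -0.08, with 7 negative. COX6C, a small accessory subunit, lay just outside the threshold: it was at 432, 454, 468, 392 and 354 CPM with MSC, against 534, 528, 651 and 466 CPM without MSC, a log2 change of -0.38 ± 0.12 (edgeR adjusted p = 0.0550). Its groups overlapped narrowly, at tumours 7 and 13, and it was the 1 complex IV gene with an unadjusted p under 0.05. With the GC and length correction its change was -0.20 (edgeR adjusted p = 0.185). COX5B, an accessory subunit facing the matrix, had the highest change of the complex, 0.26 ± 0.14 (edgeR adjusted p = 0.253), at 182 to 279 CPM with MSC and 155 to 239 CPM without MSC. COX7A2L, a relative of COX7A known for joining complexes III and IV into supercomplexes, had a log2 change of -0.23 ± 0.13 (edgeR adjusted p = 0.271), or -0.07 with the GC and length correction.

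The complex IV isoforms were those found in most tissues. COX6A1 had the highest level per length in the complex, 1152 CPM per kb, and was at 529 to 729 CPM with MSC and 631 to 744 CPM without MSC (log2 change -0.11 ± 0.12). COX4I1, COX6B1, COX7A2 and COX8A changed by 0.16 ± 0.12, -0.06 ± 0.11, 0.11 ± 0.17 and 0.05 ± 0.11, and none was called. The correction put COX7A2 at 0.25 and COX8A at -0.06. COX4I2, the isoform known from lung and from low oxygen, and COX6A2, the heart and muscle isoform, had 0 counts in all 9 libraries. COX8C had 1 count in all. The muscle isoform COX7A1 reached at most 0.0981 CPM, the testis isoforms COX6B2 and COX7B2 at most 0.215 and 1.23 CPM, so none of these 6 isoforms could be tested. NDUFA4, first assigned to complex I and counted there by its symbol, is known as a complex IV subunit, and was at 221 to 328 CPM with MSC and 174 to 338 CPM without MSC (0.01 ± 0.16). NDUFA4L2, its paralogue known to be induced by hypoxia, was at no more than 0.237 CPM with MSC and 0.579 CPM without MSC.

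In the ATP synthase, 3 of 16 tested genes fell (18.8%, against 3.6% of all genes) and none rose, with a median log2 change of -0.11. ATP5J, coupling factor 6 of the peripheral stalk that holds the catalytic head still, was at 233, 201, 228, 189 and 164 CPM with MSC, against 319.6, 238, 330.2 and 268 CPM without MSC. The groups did not overlap, tumour 1 and tumour 11 being nearest to each other. The means were 203 ± 28.5 CPM with MSC and 289 ± 43.7 CPM without MSC (SD, n = 5 and 4), a log2 change of -0.51 ± 0.12 (edgeR adjusted p = 0.0177). The call was lost without tumour 9 or 12 (edgeR adjusted p = 0.0661 and 0.0863).

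ATP5F1, subunit b of the same stalk, was at 251, 272, 273, 232 and 205 CPM with MSC, against 322, 309.7, 392 and 274 CPM without MSC. Tumours 7 and 13 almost met, and the log2 change was -0.40 ± 0.12 (edgeR adjusted p = 0.0448), the weakest of the calls. All 4 peripheral stalk genes had negative log2 changes, with a median of -0.23. ATP5I, subunit e, a small membrane subunit known for its place in ATP synthase dimers, was at 214, 246, 229.7, 189 and 187 CPM with MSC, against 265, 325, 332 and 222 CPM without MSC. Tumour 13 lay within the group with MSC, and the log2 change was -0.42 ± 0.12 (edgeR adjusted p = 0.0423). The calls of ATP5F1 and ATP5I were lost in 8 and 7 of the 9 fits that left out 1 tumour.

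The catalytic head did not move one way. ATP5A1, the alpha subunit, was at 358 to 463 CPM with MSC and 449 to 527 CPM without MSC (-0.27 ± 0.11, and -0.18 with the GC and length correction), whereas ATP5B, the catalytic beta subunit, was at 364 to 420.0 CPM with MSC and 317 to 377 CPM without MSC (0.18 ± 0.10). Neither was called (edgeR adjusted p = 0.117 and 0.292). ATP5D, the delta subunit of the central stalk, had the highest change of the complex, 0.22 ± 0.13 (edgeR adjusted p = 0.297), and was at 0.04 with the GC and length correction. ATP5G1, ATP5G2 and ATP5G3 encode the same mature c-ring protein, and none was called, with changes of 0.19 ± 0.11, -0.01 ± 0.13 and -0.06 ± 0.11. ATP5J2, subunit f, had the highest level per length, 709 CPM per kb, and changed by -0.06 ± 0.13.

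The summed levels of the complexes overlapped between the groups. The summed level of complex I was 5778, 5273, 5599, 4508 and 4275 CPM in tumours 1, 6, 7, 10 and 15 with MSC, against 5456, 5303, 5826 and 5596 CPM in tumours 9, 11, 12 and 13 without MSC. The groups overlapped because tumours 1, 6 and 7 were at the level of the tumours without MSC and tumours 10 and 15 were below all others. The summed level of complex V was 5086, 5324, 5068, 4512 and 3990.5 CPM with MSC, against 5340.5, 5526, 5730.0 and 4969.6 CPM without MSC, with the same 2 tumours lowest. The ratio of the group means, with over without MSC, was 0.92 for complex I, 0.96 for complex II, 0.89 for complex III, 0.94 for complex IV and 0.89 for complex V. All 89 genes together took 1.73 ± 0.13% of gene counts with MSC and 1.91 ± 0.06% without MSC (SD, n = 5 and 4).

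The pattern among tumours ran through all 5 complexes. On the log2(CPM + 0.5) scale, the median difference of the 78 genes from their 9-tumour mean was 0.09, 0.05 and 0.09 in tumours 1, 6 and 7 and -0.17 and -0.29 in tumours 10 and 15 with MSC, against 0.08, 0.05, 0.13 and 0.04 in tumours 9, 11, 12 and 13 without MSC. So 3 of the 5 tumours with MSC were within the range of the tumours without MSC, and 2 were below it. Tumour 15 was the lowest of the 9 for 50 of the 78 genes (64.1%), against 14% of the other genes, and tumour 12 was the highest for 27 (34.6%), against 20.4% of the other genes. Tumour 1, with MSC, was the highest for 20 (25.6%), against 11.3% of the other genes. Short transcripts outside the respiratory chain shared part of this: over 1115 other genes with transcripts of at most 1 kb, tumours 10 and 15 were at -0.07 and -0.18, and the other 7 tumours were between 0.02 and 0.08. The tested subunits had a median transcript length of 0.843 kb, against 2.59 kb for other genes. The place of tumour 15 also depended on the scaling. Its TMM factor was the highest, 1.14, against 0.94 to 1.04 in the other tumours, and a higher factor lowers CPM. As a share of gene counts, which leaves out this factor, all 89 genes took 1.64% in tumour 15 and 1.57% in tumour 10, so tumour 10 was then the lowest. Without tumour 15 the median log2 change of the subunits was -0.05 and edgeR called 4 lower. The part of transcript length and of tumour 15's fibroblast RNA in the fall was not tested.

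**Figure D3:**
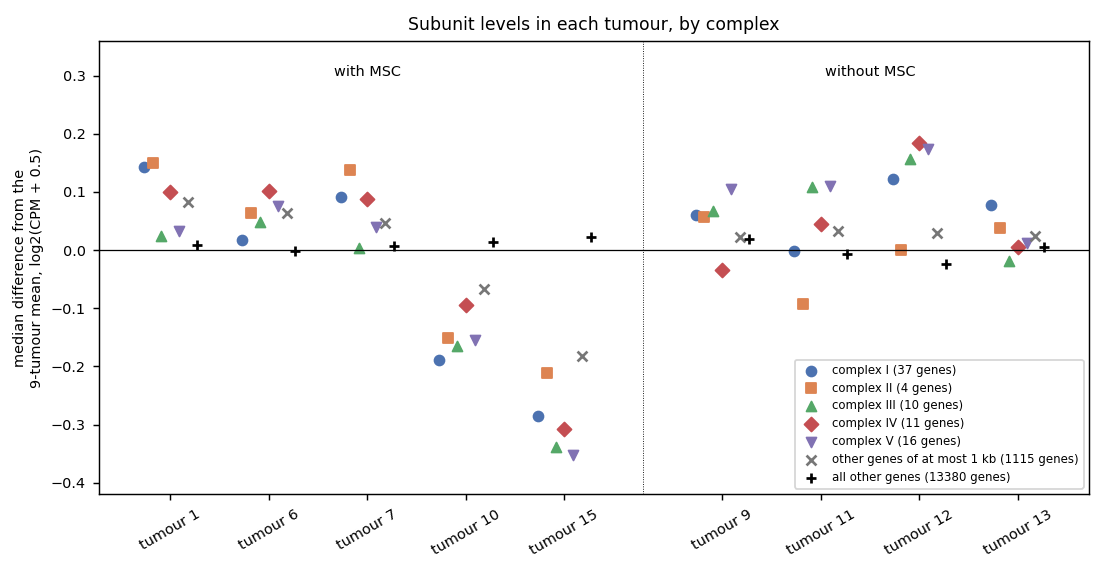
Median difference of the tested subunits of each complex from their 9-tumour mean, in log2(CPM + 0.5), for the 5 tumours with MSC and the 4 tumours without MSC, beside the same median for other short genes and for all other genes. Tumours 10 and 15 lie below 0 for all 5 complexes, the other tumours with MSC lie above 0, and all other genes lie near 0 in every tumour.

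The change of a subunit also went with the base composition of its transcript. Over the 78 genes, Spearman's rho between log2 change and GC content was 0.57, and over 12831 other genes it was 0.30, with all points sharing the same 9 libraries. Of 20 subunits with a GC content below 45%, 19 had negative log2 changes and the median was -0.24, against -0.09 for other genes in that range. Of 8 subunits at 60% or above, 7 had positive changes, among them CYC1 (61.8%) and NDUFS7 (66.5%), and the median was 0.14, against 0.19 for other genes. Of the 8 subunits that fell, ATP5F1 was at 43.1%, 6 lay between 45 and 50%, and ATP5I was at 55.6%. After the correction for GC content and length the median of the 78 was -0.07, with 50 negative. NDUFB1, NDUFC1, UQCRH, ATP5I and ATP5J were called lower in that fit. The part of GC content in the remaining calls was not tested.

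**Figure D4:**
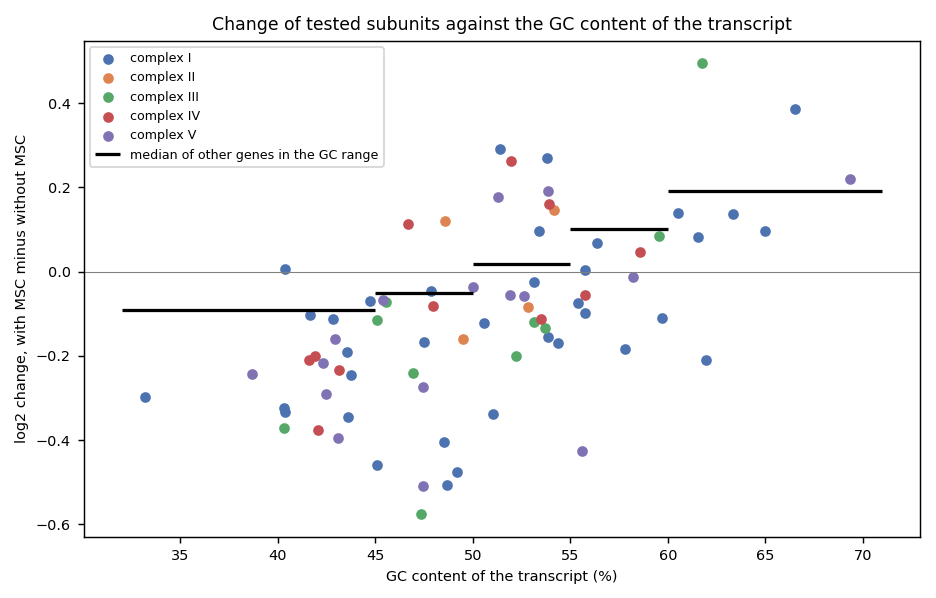
Log2 change (with MSC minus without MSC) of 77 of the 78 tested subunits against the GC content of its transcript in percent, coloured by complex. Black lines give the median of the other genes in 5 GC ranges, drawn over the subunits' span. Subunits below 45% GC lie almost all below 0 and those above 60% mostly above 0, and other genes run from -0.09 to 0.19.

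Of 45 assembly factors, which build the complexes without being part of them, 8 fell (17.8%, against 3.6% of all genes) and none rose by edgeR's test. Their median log2 change was -0.18. DESeq2 called 12 lower and 1 higher, against 5.87% of all genes lower, and limma-voom called 2 lower, against 2.18%. An unadjusted p under 0.05 was found for 16 of the 45, against 3305 of 13458 genes tested. Without tumour 12, edgeR called none of these factors lower (0.69% of all genes were). NDUFAF4, a complex I assembly factor, averaged 44.4 ± 4.81 CPM with MSC and 63.5 ± 9.14 CPM without MSC (log2 change -0.52 ± 0.12, edgeR adjusted p = 0.0138). COX11, which inserts copper into complex IV, averaged 96.4 ± 2.70 CPM with MSC and 130.4 ± 13.3 CPM without MSC (-0.43 ± 0.10, edgeR adjusted p = 0.0126). The other factors that fell were C8orf38 for complex I, TTC19 for complex III, and COX16, COX18, C7orf44 and CCDC56 for complex IV, between -0.48 and -0.34. The COX11 call was lost only without tumour 12 among the fits that left out 1 tumour, whereas C8orf38 and TTC19 lost theirs in 8 of 9. The GC and length correction ended the COX11 call (log2 change -0.27, edgeR adjusted p = 0.0507), and those of COX16 (-0.21), C7orf44 (-0.20), C8orf38 (-0.21), TTC19 (-0.30) and COX18 (-0.39).

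Of 8 further subunits and associated proteins outside the symbol rule (NDUFA4 was listed here too), 3 fell (37.5%, against 3.6% of all genes). C14orf2, a small ATP synthase protein, was at 285, 261, 291, 218 and 192 CPM with MSC, against 365, 381, 482 and 304 CPM without MSC, with no overlap (log2 change -0.62 ± 0.14, edgeR adjusted p = 0.0122). The C14orf2 call was lost without tumour 12. ATPIF1, the inhibitor of ATP hydrolysis by the synthase, changed by -0.34 ± 0.10 (edgeR adjusted p = 0.0443). The ATPIF1 call was lost in 8 of the 9 fits that left out 1 tumour, and under limma-voom. HIGD1A, a hypoxia-inducible protein that associates with complex IV, changed by -0.41 ± 0.10 (edgeR adjusted p = 0.0239). Its call was lost without tumour 9, 10 or 12. HIGD1A was also the 1 gene called by edgeR among 6 tested genes of a list on hypoxia and mitochondria. The other genes of that list ran the other way: 5 of the 6 had positive log2 changes, the median was 0.23, and 4 of the 6 had an unadjusted p under 0.05. DESeq2 also called LONP1, a mitochondrial protease gene, higher (adjusted p = 0.0394).

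Among 17 regulators of mitochondrial biogenesis, MYC, a transcription factor that acts on many metabolic genes, was the only one called by edgeR. Of the 17, 5.88% were thus called higher, against 4.18% of all genes. DESeq2 also called MTERF, a mitochondrial transcription termination factor gene, lower (adjusted p = 0.0466), which edgeR put at -0.57 ± 0.19 (adjusted p = 0.0722). MYC was at 160.0, 213, 176, 185 and 162 CPM with MSC, against 136, 128, 121 and 134 CPM without MSC, with no overlap (log2 change 0.47 ± 0.11, edgeR adjusted p = 0.0132). The MYC call was lost without tumour 12 (edgeR adjusted p = 0.0658). NRF1, whose core motif is shown above, averaged 13.5 ± 1.68 CPM with MSC and 17.3 ± 3.70 CPM without MSC (-0.36 ± 0.15, edgeR adjusted p = 0.156). GABPA changed by 0.01 ± 0.15, TFAM, the mitochondrial DNA packaging factor, by -0.22 ± 0.11, and ESRRA, a nuclear receptor, by 0.28 ± 0.11. The GC and length correction put GABPA, TFAM and ESRRA at 0.11, -0.03 and 0.10. The coactivator PPARGC1A was low, at 0.870 to 2.01 CPM with MSC and 0.910 to 2.11 CPM without MSC. None of NRF1, GABPA, TFAM, ESRRA and PPARGC1A was called.

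Among genes of electron carriers, of ubiquinone synthesis and of enzymes that feed the chain, edgeR called none. None of 15 genes of electron carriers and of ubiquinone synthesis passed by edgeR, DESeq2 or limma-voom, or at an unadjusted p of 0.05. None of 18 genes of the citric acid cycle and pyruvate dehydrogenase passed by edgeR or limma-voom (1 lower by DESeq2, 3 at an unadjusted p of 0.05). None of 6 pyruvate dehydrogenase kinases and phosphatases passed by edgeR, DESeq2 or limma-voom, and 1 had an unadjusted p under 0.05. This was PDK1, a kinase that closes pyruvate's entry into the cycle, at 18.8 ± 4.59 CPM with MSC and 13.3 ± 3.79 CPM without MSC (0.50 ± 0.19, edgeR adjusted p = 0.112). Over all 111 related genes, 11 fell (9.91%, against 3.6% of all genes) and 1 rose (0.901%, against 4.18%) by edgeR, and the median log2 change was -0.07. Without tumours 12 and 15 together, none of the 78 subunits and none of the related genes was called lower by edgeR (0.747% of all genes were), and 11 of the subunits had an unadjusted p under 0.05.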

How the data were processed

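RNA from anti-GFP polysome pull-downs of 9 xenograft tumours was sequenced. The authors deposited unnormalized read counts for each gene symbol. Per the submitters' processing notes the authors used CASAVA 1.8.1, TopHat 1.4.0, HTSeq and hg19. Not given in the sources used here are the annotation, HTSeq's settings and any use of strand or removal of mouse reads, so reads of overlapping genes, pseudogenes and conserved mouse genes can be lost or misassigned. Rows naming no gene took 10.2 to 12.1% of counts and were left out. Mitochondrially encoded genes were not analysed here.

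All genes were fitted together with edgeR 4.0.16 in R 4.3.3 (filterByExpr, TMM, glmQLFit with robust=TRUE, glmQLFTest, Benjamini-Hochberg over all genes tested), with 5 tumours with MSC and 4 without, no covariates and no pairing, and the pipeline was tested on simulated data. The SE of a log2 change is its size over the square root of F. DESeq2 1.42.0, limma-voom (limma 3.58.1), other scalings and filters, thinned counts, a GC and length correction (splines with 4 df) and fits without single tumours were alternatives. Transcript length and GC content came from GENCODE release 29 for 95.9% of tested genes and are approximate, since the counted isoforms are unknown. The promoter build differs from the counts' build, and no coordinates were joined between them.

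Named genes were the called subunits, the extremes of each complex by p, change and level per kb, isoform sets, complex II, called related genes and chosen regulators. NDUFS1, ATP5A1, ATP5B, UQCRHL MTERF, LONP1 and the complex III core and Rieske proteins were added after their values were seen. 1 tested subunit is part of the counts and medians and is not named or plotted here. The members and lists were chosen with earlier results of these data known. The labels describe separate tumours, and p-values measure the spread between them.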

Additional observations from a re-analysis of the deposited data

Results flagged for a closer look

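1 of 104 groups of values examined held a tumour far from the others of its group, where chance sets apart about 1 in 20 groups. NDUFS7, an iron-sulphur subunit of complex I, was at 60.4 CPM in tumour 13 without MSC, and the other 3 tumours without MSC were at 35.4 to 39.0 CPM. The gap between tumour 13 and the nearest other tumour was 0.855 of the group's range. Without tumour 13, edgeR called 3 subunits higher with MSC, CYC1 and NDUFS7 among them, and 11 lower. These were 3.80% and 13.9% of the 79 tested subunits, against 7.31% and 6.4% of all genes in that fit. Tumour 13 was picked here for its NDUFS7 value, so the NDUFS7 call without it is not separate evidence of a change.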

How the results depend on the processing

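Called subunits kept the direction of their log2 change in all 20 alternatives, and 9 of 26 uncalled named genes changed sign in at least 1. The 8 lower subunits became 5 under limma-voom, 5 with the GC and length correction, 0 without tumours 15 and 12 together, and 0 to 11 in the fits that left out 1 tumour; other scalings, filters, thinning and DESeq2 gave 8 to 10, and a fit without robust dispersions gave 7. The 1 higher subunit became 0 with the GC and length correction and 0 without tumours 15 and 12 together, and 0 to 3 without single tumours. The median log2 change of the subunits was -0.14 to -0.05 without single tumours and -0.04 without tumours 15 and 12 together. Over all genes, the counts higher and lower were 856 and 790 with DESeq2, 201 and 101 without tumours 15 and 12 together, and 151 to 985 and 94 to 863 without single tumours, and limma-voom called 293 lower. The 11 lower related genes became 18 with DESeq2, 4 with limma-voom, 7 with the GC and length correction, 0 without tumours 15 and 12 together and 0 to 17 without single tumours. The 1 higher related gene became 2 with upper-quartile factors, 3 with a filter of 5 CPM, 3 with DESeq2, 2 with thinned counts and 0 to 4 without single tumours. The cause of these differences was not tested, and the fits that left tumours out also had fewer tumours. No paired analysis was possible because the groups share no replicate numbers. The 11 untested genes had at most 53 counts in any library, and COX4I2 and COX6A2 had 0 in all. Whether depth or absent expression lay behind this was not tested.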
